A study of Homo sapiens with 18 samples.

Results

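The 46 genes described here encode the proteins that take a cell from G2 through mitosis and cytokinesis. They were picked by symbol for their known roles (mitotic cyclins, CDK1 and its phosphatases, mitotic kinases, spindle checkpoint, kinetochore, kinesin, spindle and cytokinesis proteins, and the transcription factors FOXM1 and MYBL2). No measured value entered the rule, but the genes were chosen with earlier results of these data known, so the set is no independent evidence. All 46 symbols were among the 60642 symbols counted. Of these 46 genes, 44 had enough counts to be tested, among 15298 genes tested in all. The remaining members, SPC25 and NUSAP1, were at or near 0 in every library, at most 0.411 and 0.510 CPM (counts scaled to a common library size), and are not tested here.

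RNA was sequenced from MDA-MB-231 cells, an established human triple-negative breast cancer (TNBC) line, to ask which glucocorticoid-regulated genes depend on PRMT5, an arginine methyltransferase, or on HP1γ, a chromatin protein encoded by CBX3. Cells received a pool of siRNAs against CBX3 (siHP1γ), a pool against PRMT5 (siPRMT5) or a non-specific siRNA (siNS) for 48 h. Each was treated for 8 h with 100 nM dexamethasone (Dex), a synthetic glucocorticoid, or with the same volume of its vehicle ethanol (Eth). This made 6 conditions with 3 replicates each, or 18 libraries: siNS Eth, siNS Dex, siHP1γ Eth, siHP1γ Dex, siPRMT5 Eth and siPRMT5 Dex. Each protein was depleted with 1 pool of siRNAs, so an effect of the pool on other targets cannot be told apart from the effect of the depletion.

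The gene counts of a library summed to between 8682992 and 12472381. CBX3 mRNA fell to 3.89% of siNS without Dex and to 5.998% with Dex in siHP1γ cells, and PRMT5 mRNA fell to 2.96% and 4.41% in siPRMT5 cells, so each siRNA matched its label. PRMT5 mRNA was also lower in siHP1γ cells, at 83.9% of siNS without Dex (adjusted p = 0.0111) and 78.7% with Dex (adjusted p = 0.00123). The mesenchymal genes VIM, CD44, ZEB1 and FN1 were expressed in every library, with VIM between 5444 and 9592 CPM. The receptor genes ESR1 and PGR and the epithelial gene CDH1 reached at most 0.218 CPM. Other epithelial genes were expressed: KRT8 ranged from 167 to 330.3 CPM, KRT18 from 219 to 408 CPM and EPCAM from 8.57 to 14.01 CPM. The receptor gene ERBB2 ranged from 24.5 to 36.003 CPM. PTPRC, CD3E, MS4A1 and ALB, which mark other cell types, stayed at or below 0.221 CPM. The endothelial marker PECAM1 ranged from 1.10 to 8.15 CPM, and CD68, a further marker of other cell types, from 1.23 to 3.07 CPM.

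A cell enters mitosis when CDK1, bound to cyclin A or cyclin B, is freed from inhibitory phosphates by CDC25 phosphatases and starts a cascade that includes PLK1 and the Aurora kinases. Kinetochores then tie chromosomes to the spindle, and the spindle checkpoint holds back the anaphase-promoting complex (APC/C) until all are attached. Once CDC20 activates it, the complex degrades cyclin B and securin, sister chromatids part and the cell divides. Most of these genes are transcribed late in the cell cycle, through a cell cycle genes homology region (CHR) and CCAAT boxes in their promoters, under the MuvB complex with MYBL2 and then FOXM1. The RNA of a culture therefore carries few of these transcripts from cells in G1 and many from cells in G2 and mitosis. In these bulk libraries, a lower share of cells in G2 and mitosis and less of a transcript per cell cannot be told apart, nor can a higher share and more per cell.

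Promoter windows from RefSeq (GRCh38.p14), 250 bases before to 50 bases after a start, were at hand for 38 of the 46 genes and held 50 windows in all. No entry was found for AURKA, BIRC5, UBE2C, BUB3, TTK, TPX2, RACGAP1 and FOXM1. The CHR core TTTGAA, on either strand, was in a window of 26 of these 38 genes, or 68.4%, against 18.2% of 27305 genes with a window. Its variant TTTAAA was found in 14 of them, 36.8% against 14.5%, and CCAAT in 30 of them, 78.9% against 39.7%. A CCAAT box together with either CHR form was present in 24 of the 38 genes, 63.2% against 11.2% of all genes. MYBL2 and CKAP2 were the members whose windows held none of the 3 motifs, as did 45.1% of all genes. These are matches of letters in a window and no measure of binding, and a missing match says only that the letters are absent from that window.

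After PRMT5 depletion, 19 members rose and 2 fell both without and with Dex. The promoters of 4 of these are shown as examples: CCNB2 and KIF20A, picked from those that rose, and CCNF and MYBL2, which fell. All 4 windows lie on the plus strand of GRCh38.p14, at chr15:59104896-59105195 for CCNB2, chr5:138178862-138179161 for KIF20A, chr16:2429197-2429496 for CCNF and chr20:43666864-43667163 for MYBL2. Capitals mark the CHR core, its variant and the CCAAT box, read on either strand, and sequences run 5′ to 3′.
CCNB2: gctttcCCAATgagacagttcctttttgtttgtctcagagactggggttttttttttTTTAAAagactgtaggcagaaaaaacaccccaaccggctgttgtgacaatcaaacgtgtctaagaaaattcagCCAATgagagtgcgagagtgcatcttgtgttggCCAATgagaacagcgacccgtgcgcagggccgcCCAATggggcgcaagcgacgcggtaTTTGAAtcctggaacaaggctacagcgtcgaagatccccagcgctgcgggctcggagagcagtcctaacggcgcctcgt
KIF20A: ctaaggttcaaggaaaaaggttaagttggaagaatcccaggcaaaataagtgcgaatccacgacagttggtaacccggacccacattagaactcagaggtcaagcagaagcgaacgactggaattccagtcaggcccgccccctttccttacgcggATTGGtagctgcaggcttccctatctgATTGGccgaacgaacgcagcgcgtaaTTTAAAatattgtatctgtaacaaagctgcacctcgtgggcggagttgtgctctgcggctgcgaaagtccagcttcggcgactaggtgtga
CCNF: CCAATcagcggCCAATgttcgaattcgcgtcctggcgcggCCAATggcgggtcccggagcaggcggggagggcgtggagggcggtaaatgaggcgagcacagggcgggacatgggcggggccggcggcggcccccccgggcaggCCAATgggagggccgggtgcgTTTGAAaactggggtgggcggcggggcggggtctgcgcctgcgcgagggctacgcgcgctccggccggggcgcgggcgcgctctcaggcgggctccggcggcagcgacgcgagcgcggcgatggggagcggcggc
MYBL2: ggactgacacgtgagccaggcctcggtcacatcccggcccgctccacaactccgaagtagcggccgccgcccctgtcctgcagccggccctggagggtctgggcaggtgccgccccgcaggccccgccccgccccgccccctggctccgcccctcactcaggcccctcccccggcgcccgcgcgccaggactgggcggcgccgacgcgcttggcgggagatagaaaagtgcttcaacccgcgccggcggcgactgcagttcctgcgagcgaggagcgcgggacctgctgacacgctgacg
CCNB2 held 4 CCAAT boxes, a TTTAAA and a TTTGAA whose first base lay at -29 from the start. KIF20A held 2 CCAAT boxes on the opposite strand and a TTTAAA at -41. CCNF, which fell, held 4 CCAAT boxes and a TTTGAA at -85, so the motifs were found both in genes that rose and in a gene that fell. Of the genes that rose but are not shown, NEK2 held CCAAT boxes without a CHR form, and CKAP2 held none of the motifs.

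Across the 18 libraries, the mitotic and G2/M genes moved down in siHP1γ cells and up in siPRMT5 cells, and moved little with Dex. Relative to the mean of the siNS Eth libraries, the median log2 difference of the 44 genes lay between -0.05 and 0.03 in siNS Eth, between -0.10 and -0.03 in siNS Dex, between -0.30 and -0.24 in siHP1γ Eth and between -0.31 and -0.21 in siHP1γ Dex libraries. It lay between 0.19 and 0.23 in siPRMT5 Eth and between 0.16 and 0.29 in siPRMT5 Dex libraries. All 6 siHP1γ libraries were thus below all 6 siNS libraries by this median, and all 6 siPRMT5 libraries above them. The 46 genes together took 1.002% to 1.08% of the counts in siNS libraries, 0.884% to 0.968% in siHP1γ libraries and 1.19% to 1.39% in siPRMT5 libraries.

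**Figure D1:**
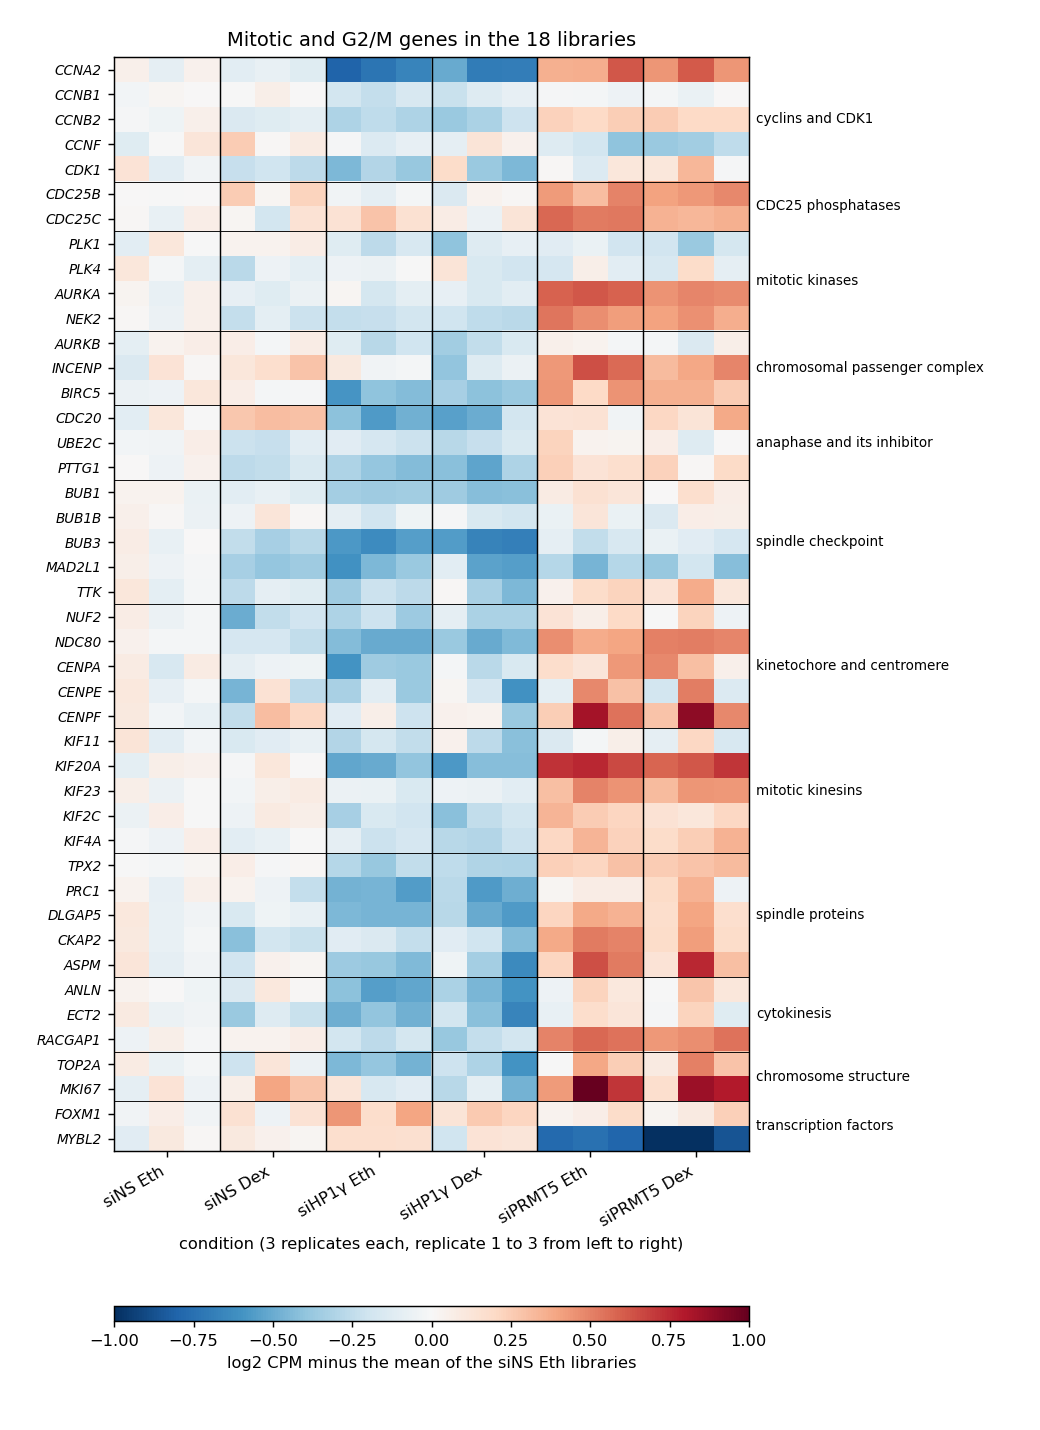
Log2 CPM of the 44 tested genes in each of the 18 libraries, minus the mean of the 3 siNS Eth libraries. Rows are genes grouped by role, columns are libraries grouped by condition, and colours are limited to -1 to 1, so that MYBL2 in siPRMT5 Dex replicates 1 and 2 and MKI67 in siPRMT5 Eth replicate 2 are drawn at the limit. The siHP1γ columns are mostly blue and the siPRMT5 columns mostly red, with MYBL2 and CCNF blue in siPRMT5 cells and FOXM1 red in siHP1γ Eth.

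The genes were tested in 1 edgeR quasi-likelihood fit of all 18 libraries, with Benjamini-Hochberg adjustment over the 15298 genes, and a gene is called higher or lower after a depletion at an adjusted p under 0.05. After HP1γ depletion without Dex, 26 of the 44 genes were lower, against 15.2% of all genes tested, and 1 (FOXM1) was higher, against 16.5%. With Dex, 23 of the 44 were lower, against 12.3% of all genes tested, and 0 were higher, against 11.7%. No member was higher there at an unadjusted p under 0.05 or with DESeq2 either. After PRMT5 depletion without Dex, 21 of the 44 were higher, against 20.6% of all genes tested, and 4 were lower, against 21.6%. With Dex, 27 of the 44 were higher, against 20.6%, and 3 were lower, against 21.9%.

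The median log2 fold change of the 44 genes was -0.25 after HP1γ depletion without Dex and -0.20 with Dex, and 0.22 after PRMT5 depletion without Dex and 0.29 with Dex. The median over all genes tested was between 0.00048 and 0.013 in these 4 comparisons. Most changes were small: the members ranged from -0.73 to 0.34 and from -0.69 to 0.11 after HP1γ depletion, and from -0.78 to 0.74 and from -1.10 to 0.70 after PRMT5 depletion. With library sizes scaled by total counts alone, 14 of the 44 genes rather than 23 were lower after HP1γ depletion with Dex, with a median of -0.11. The median over all genes tested was then 0.086. The median of the members minus that of all genes was -0.20 under this scaling and -0.20 in the fit above.

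The comparisons without and with Dex share no libraries. After HP1γ depletion, 18 of the 44 genes were lower in both, against 7.97% of all genes tested. After PRMT5 depletion, 19 were higher in both, against 12.9%, and 2 (CCNF and MYBL2) were lower in both, against 15.2%. Across the depletions, 19 of the 44 genes were lower after HP1γ depletion without Dex and higher after PRMT5 depletion with Dex, against 3.86% of all genes tested, and 14 were lower after HP1γ depletion with Dex and higher after PRMT5 depletion without Dex, against 2.49%. The genes in both of these cross pairs include CCNA2, CCNB2, BIRC5, NDC80, KIF20A, TPX2, DLGAP5 and RACGAP1.

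**Figure D2:**
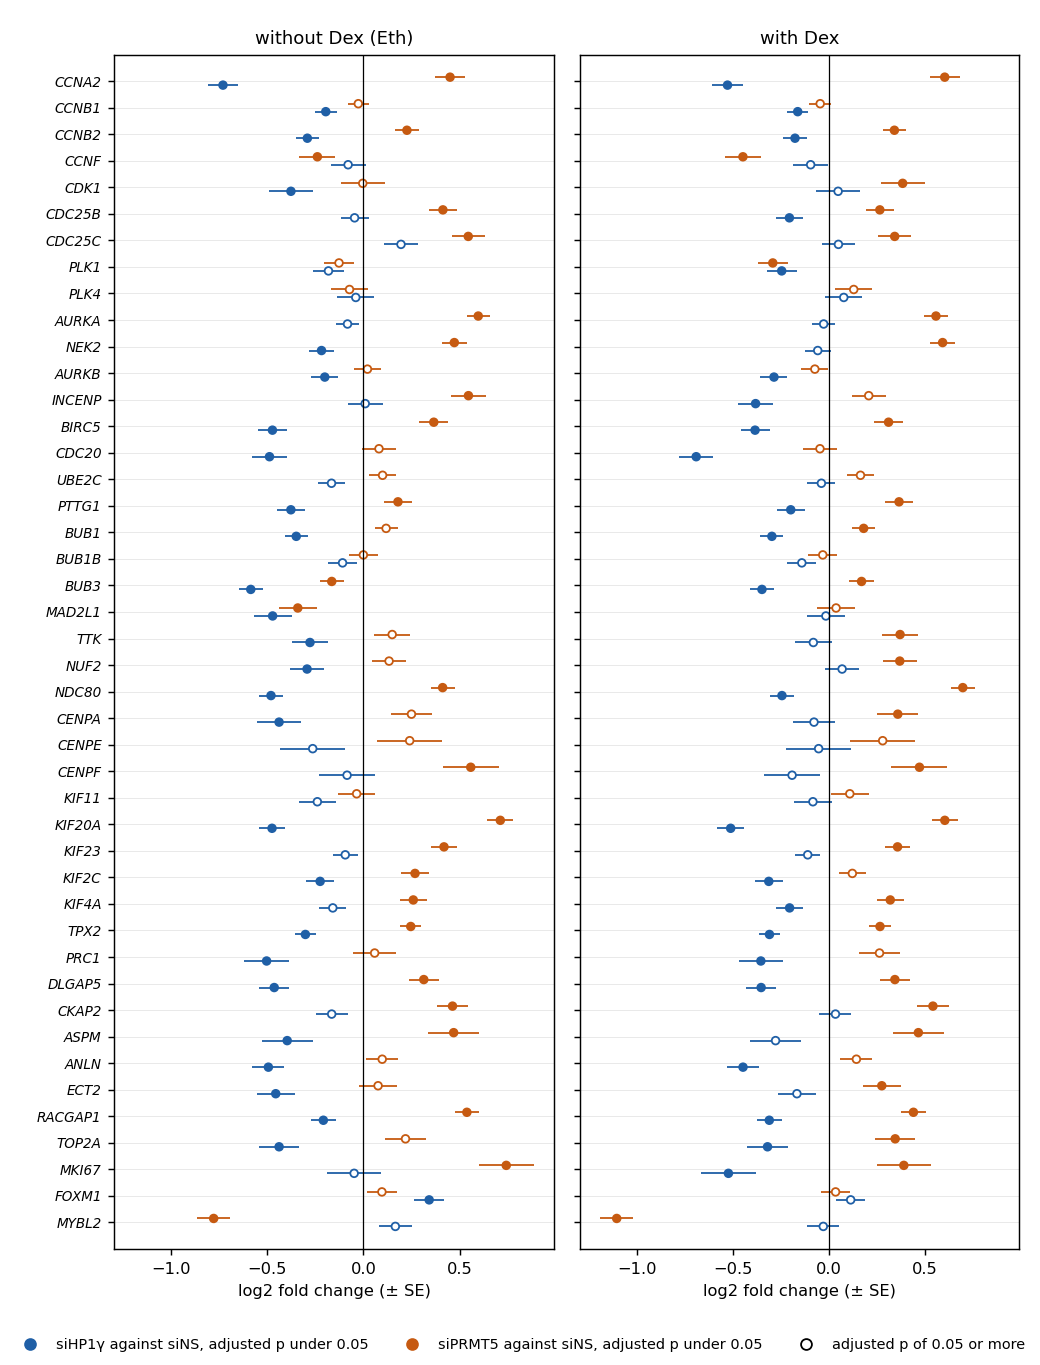
Log2 fold change of each of the 44 genes after HP1γ depletion (blue) and PRMT5 depletion (orange) against siNS, without Dex on the left and with Dex on the right. Bars are standard errors (SE) from the edgeR fit with 3 libraries per condition, and filled points have an adjusted p under 0.05. Filled blue points lie to the left of 0, apart from FOXM1 without Dex, and most filled orange points lie to the right, apart from CCNF, PLK1, BUB3, MAD2L1 and MYBL2.

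Among the cyclins and CDK1, 4 of 5 genes were lower after HP1γ depletion without Dex and 3 of 5 with Dex. After PRMT5 depletion, 2 were higher and 1 lower without Dex, and 3 higher and 1 lower with Dex. CCNA2 encodes cyclin A2, the partner of CDK1 in late G2. It stood at 182, 165 and 181 CPM in siNS Eth, 101, 106 and 111 CPM in siHP1γ Eth and 225, 226 and 269.98 CPM in siPRMT5 Eth libraries. With Dex, CCNA2 stood at 164, 167 and 161 CPM in siNS Dex, 124, 108 and 108 CPM in siHP1γ Dex and 239, 268 and 239 CPM in siPRMT5 Dex libraries. Here and for the other genes, a value with ± is a log2 fold change against siNS with its SE. The siHP1γ values of CCNA2 were all below and the siPRMT5 values all above the siNS values, with and without Dex. The log2 fold change of CCNA2 was -0.73 ± 0.08 (adjusted p = 1.31e-07) without Dex and -0.53 ± 0.08 (adjusted p = 1.66e-05) with Dex after HP1γ depletion. After PRMT5 depletion it was 0.45 ± 0.08 (adjusted p = 3.84e-05) and 0.60 ± 0.08 (adjusted p = 6.66e-07). CCNB1, the major mitotic cyclin, stood at 573, 592 and 584 CPM in siNS Eth, 512, 494 and 521 CPM in siHP1γ Eth and 577, 577 and 564 CPM in siPRMT5 Eth libraries. With Dex, CCNB1 stood at 581, 606 and 586 CPM in siNS Dex, 501, 533 and 549.9 CPM in siHP1γ Dex and 576, 556 and 586 CPM in siPRMT5 Dex libraries. It was slightly lower in siHP1γ cells, at -0.20 ± 0.06 (adjusted p = 0.00902) and -0.16 ± 0.06 (adjusted p = 0.0352), with no overlap with siNS values, while the siPRMT5 values overlapped them (-0.03 ± 0.06 and -0.05 ± 0.06). The call with Dex was lost without siNS Dex replicate 1, 2 or 3 or siHP1γ Dex replicate 1 or 2 (adjusted p from 0.0608 to 0.154). CCNB2, the other B-type cyclin, was lower, at -0.29 ± 0.06 (adjusted p = 0.000607) and -0.18 ± 0.06 (adjusted p = 0.0348) after HP1γ depletion. It was higher by 0.23 ± 0.06 (adjusted p = 0.00367) and 0.34 ± 0.06 (adjusted p = 5.64e-05) after PRMT5 depletion. Its call after HP1γ depletion with Dex was lost without siNS Dex replicate 1, 2 or 3 or siHP1γ Dex replicate 1 or 2 (adjusted p from 0.0609 to 0.149).

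CDK1, the kinase that drives mitotic entry, stood at 299.9, 253 and 267 CPM in siNS Eth, 199.6, 222 and 209 CPM in siHP1γ Eth and 275, 248 and 295 CPM in siPRMT5 Eth libraries. With Dex, CDK1 stood at 232, 238 and 227 CPM in siNS Dex, 309, 211 and 199 CPM in siHP1γ Dex and 295, 343 and 270.01 CPM in siPRMT5 Dex libraries. The first siHP1γ Dex library was above every siNS Dex library, and the other 2 were below them. CDK1 was lower after HP1γ depletion without Dex, at -0.38 ± 0.11 (adjusted p = 0.0136), while the value with Dex was 0.05 ± 0.11. After PRMT5 depletion it was -0.0036 ± 0.11 without Dex and was higher by 0.38 ± 0.11 (adjusted p = 0.00844) with Dex. The first of these calls was lost without siNS Eth replicate 1 or siHP1γ Eth replicate 1 (adjusted p from 0.0541 to 0.0661), and the second without siPRMT5 Dex replicate 2 (adjusted p = 0.061). CCNF encodes cyclin F, a substrate receptor of an SCF ubiquitin ligase that binds no CDK. It stood at 41.6, 45.3 and 49.3 CPM in siNS Eth, 44.96, 41.2 and 42.8 CPM in siHP1γ Eth and 41.4, 39.8 and 34.3 CPM in siPRMT5 Eth libraries. With Dex, CCNF stood at 54.1, 45.6 and 47.9 CPM in siNS Dex, 42.5, 49.6 and 46.5 CPM in siHP1γ Dex and 34.99, 35.5 and 38.02 CPM in siPRMT5 Dex libraries. In contrast to the other cyclins, the siPRMT5 values lay below all siNS values in both treatments. CCNF fell by 0.24 on the log2 scale without Dex (adjusted p = 0.0405) and by 0.45 with Dex (adjusted p = 0.000292) after PRMT5 depletion, and its values after HP1γ depletion were -0.08 ± 0.09 and -0.10 ± 0.09. The call without Dex was lost without siNS Eth replicate 2 or 3 or siPRMT5 Eth replicate 2 or 3 (adjusted p from 0.0519 to 0.221).

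The CDC25 phosphatases, which remove the inhibitory phosphates of CDK1, were both higher after PRMT5 depletion in both treatments. CDC25B stood at 107, 106 and 107 CPM in siNS Eth, 104, 100.2 and 105 CPM in siHP1γ Eth and 143, 132 and 150.5 CPM in siPRMT5 Eth libraries. With Dex, CDC25B stood at 127, 108 and 125 CPM in siNS Dex, 96.4, 109 and 107 CPM in siHP1γ Dex and 141, 144 and 148 CPM in siPRMT5 Dex libraries. Its siPRMT5 values were above all siNS values, by 0.41 ± 0.07 (adjusted p = 4.87e-05) without Dex and 0.26 ± 0.07 (adjusted p = 0.00406) with Dex. CDC25B was lower after HP1γ depletion with Dex, at -0.21 ± 0.07 (adjusted p = 0.0386), with overlapping libraries, and this call was lost without siNS Dex replicate 1 or 3 or siHP1γ Dex replicate 1 (adjusted p from 0.143 to 0.175). CDC25C stood at 31.7, 29.96 and 32.9 CPM in siNS Eth, 34.8, 38.3 and 35.1 CPM in siHP1γ Eth and 47.1, 45.3 and 45.6 CPM in siPRMT5 Eth libraries. With Dex, CDC25C stood at 31.9, 27.7 and 34.9 CPM in siNS Dex, 33.2, 30.2 and 34.5 CPM in siHP1γ Dex and 40.1, 39.6 and 40.4 CPM in siPRMT5 Dex libraries. It was higher in siPRMT5 cells by 0.55 ± 0.09 (adjusted p = 1.41e-05) and 0.34 ± 0.09 (adjusted p = 0.00228), again without overlap, and was 0.20 ± 0.09 and 0.05 ± 0.09 in siHP1γ cells, where it did not pass the test.

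Of the mitotic kinases, AURKA and NEK2 were higher after PRMT5 depletion in both treatments. AURKA, the Aurora kinase of centrosomes and spindle poles, stood at 269, 251 and 273 CPM in siNS Eth, 268, 234 and 247 CPM in siHP1γ Eth and 398, 406 and 397 CPM in siPRMT5 Eth libraries. With Dex, AURKA stood at 249.8, 243 and 254 CPM in siNS Dex, 249, 238 and 246 CPM in siHP1γ Dex and 361, 372 and 367 CPM in siPRMT5 Dex libraries. Every siPRMT5 library was above every siNS library, by 0.60 ± 0.06 (adjusted p = 1.44e-08) and 0.56 ± 0.06 (adjusted p = 4.7e-08), whereas siHP1γ and siNS libraries overlapped (-0.08 ± 0.06 and -0.03 ± 0.06). NEK2, a kinase that separates centrosomes, stood at 86.3, 82.1 and 88.7 CPM in siNS Eth, 72.7, 72.9 and 75.3 CPM in siHP1γ Eth and 124, 118 and 115 CPM in siPRMT5 Eth libraries. With Dex, NEK2 stood at 72.8, 79.9 and 73.8 CPM in siNS Dex, 74.6, 71.7 and 70.9 CPM in siHP1γ Dex and 113, 118 and 110.00 CPM in siPRMT5 Dex libraries. It was higher in siPRMT5 cells by 0.47 ± 0.07 (adjusted p = 2.12e-06) and 0.59 ± 0.07 (adjusted p = 6.63e-08), and lower in siHP1γ cells without Dex, at -0.22 ± 0.07 (adjusted p = 0.0141). PLK1, which acts from mitotic entry to cytokinesis, stood at 197, 229 and 212 CPM in siNS Eth, 196, 177 and 189.8 CPM in siHP1γ Eth and 196, 203 and 185 CPM in siPRMT5 Eth libraries. With Dex, PLK1 stood at 217, 217 and 223 CPM in siNS Dex, 161, 194 and 200.2 CPM in siHP1γ Dex and 186, 164 and 187 CPM in siPRMT5 Dex libraries. With Dex, both depletions left PLK1 below all siNS values: it was lower, at -0.25 ± 0.08 (adjusted p = 0.024) in siHP1γ and, at -0.29 ± 0.08 (adjusted p = 0.00403) in siPRMT5 cells. The first call was lost without siNS Dex replicate 1 or 3 or siHP1γ Dex replicate 1 (adjusted p from 0.0558 to 0.173), and without Dex the values were -0.18 ± 0.08 and -0.13 ± 0.08. PLK4, which controls centriole duplication, ranged from 60.9 to 83.5 CPM over all libraries and passed the test in none of the 4 comparisons, with log2 fold changes from -0.07 to 0.13 and adjusted p from 0.302 to 0.792.

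The chromosomal passenger complex corrects faulty attachments at centromeres and moves to the midzone at anaphase. All 3 of its genes were lower after HP1γ depletion with Dex. BIRC5, or survivin, which brings the complex to centromeres, stood at 137, 137 and 154 CPM in siNS Eth, 94.8, 108 and 106 CPM in siHP1γ Eth and 194, 163 and 195 CPM in siPRMT5 Eth libraries. With Dex, BIRC5 stood at 149.6, 140.3 and 141 CPM in siNS Dex, 113, 107 and 110.3 CPM in siHP1γ Dex and 182, 182 and 169.97 CPM in siPRMT5 Dex libraries. Its siHP1γ values were below and its siPRMT5 values above all siNS values in both treatments. BIRC5 was lower, at -0.47 ± 0.08 (adjusted p = 3.24e-05) and -0.38 ± 0.08 (adjusted p = 0.000457) after HP1γ depletion. BIRC5 was higher by 0.37 ± 0.07 (adjusted p = 0.000292) and 0.31 ± 0.07 (adjusted p = 0.00148) after PRMT5 depletion. AURKB, the kinase of the complex, stood at 168, 184 and 188 CPM in siNS Eth, 165, 149 and 157 CPM in siHP1γ Eth and 186, 184 and 178 CPM in siPRMT5 Eth libraries. With Dex, AURKB stood at 189, 178 and 189 CPM in siNS Dex, 141, 152 and 162 CPM in siHP1γ Dex and 178, 163 and 188 CPM in siPRMT5 Dex libraries. It was lower in siHP1γ cells, at -0.20 ± 0.07 (adjusted p = 0.0308) and -0.29 ± 0.07 (adjusted p = 0.00376), and at 0.02 ± 0.07 and -0.07 ± 0.07 in siPRMT5 cells, whose libraries overlapped those of siNS. The call without Dex was lost without siNS Eth replicate 2 or 3 or siHP1γ Eth replicate 2 or 3 (adjusted p from 0.0688 to 0.132). INCENP, the scaffold, stood at 57.6, 70.02 and 64.2 CPM in siNS Eth, 68.3, 62.2 and 62.9 CPM in siHP1γ Eth and 86.3, 99.9 and 94.3 CPM in siPRMT5 Eth libraries. With Dex, INCENP stood at 69.1, 71.6 and 77.9 CPM in siNS Dex, 48.6, 58.3 and 61.2 CPM in siHP1γ Dex and 79.6, 83.4 and 89.5 CPM in siPRMT5 Dex libraries. It was lower in siHP1γ cells with Dex alone, at -0.38 ± 0.09 (adjusted p = 0.00275) against 0.01 ± 0.09 without Dex, and higher in siPRMT5 cells without Dex, by 0.55 ± 0.09 (adjusted p = 2.15e-05), against 0.21 ± 0.09 (adjusted p = 0.0631) with Dex. Whether these values differ between the treatments was tested as the altered Dex response given further on, which INCENP did not pass.

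Of the genes of anaphase, CDC20 showed the most negative log2 fold change of the 44 after HP1γ depletion with Dex. CDC20, the activator of the APC/C, stood at 115, 134 and 124 CPM in siNS Eth, 93.4, 83.6 and 88.9 CPM in siHP1γ Eth and 137, 137 and 121 CPM in siPRMT5 Eth libraries. With Dex, CDC20 stood at 149, 154 and 152 CPM in siNS Dex, 85.01, 87.8 and 109 CPM in siHP1γ Dex and 143, 136 and 162 CPM in siPRMT5 Dex libraries. The siHP1γ values were below all siNS values, at -0.49 ± 0.09 (adjusted p = 0.000144) without Dex and -0.69 ± 0.09 (adjusted p = 1.8e-06) with Dex, and the siPRMT5 values overlapped those of siNS (0.08 ± 0.09 and -0.05 ± 0.09). PTTG1, or securin, the inhibitor of separase, stood at 145, 139 and 148 CPM in siNS Eth, 116, 110.1 and 107 CPM in siHP1γ Eth and 169.9, 158 and 162 CPM in siPRMT5 Eth libraries. With Dex, PTTG1 stood at 119.9, 122 and 129.96 CPM in siNS Dex, 108, 99.7 and 116 CPM in siHP1γ Dex and 169, 145 and 165 CPM in siPRMT5 Dex libraries. It was lower in siHP1γ cells, at -0.38 ± 0.07 (adjusted p = 0.000248) and -0.20 ± 0.07 (adjusted p = 0.0463). PTTG1 was higher in siPRMT5 cells, by 0.18 ± 0.07 (adjusted p = 0.0459) and 0.36 ± 0.07 (adjusted p = 0.000186). The calls with Dex after HP1γ depletion and without Dex after PRMT5 depletion were those lost most often when 1 library was left out. The first was lost without siNS Eth replicate 1 or 2 or siNS Dex replicate 1, 2 or 3 or siHP1γ Eth replicate 1, 2 or 3 or siHP1γ Dex replicate 1 or 2 or siPRMT5 Eth replicate 3 or siPRMT5 Dex replicate 3 (adjusted p from 0.0503 to 0.212). The second was lost without siNS Eth replicate 1, 2 or 3 or siNS Dex replicate 1, 2 or 3 or siHP1γ Eth replicate 1, 2 or 3 or siHP1γ Dex replicate 2 or siPRMT5 Eth replicate 1, 2 or 3 or siPRMT5 Dex replicate 1 or 3 (adjusted p from 0.0504 to 0.157). UBE2C, the ubiquitin-conjugating enzyme of the APC/C, ranged from 107 to 153 CPM and did not pass the test in any of the 4 comparisons, with -0.17 ± 0.07 (adjusted p = 0.0834) and 0.16 ± 0.07 (adjusted p = 0.0709) as its largest differences.

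The spindle checkpoint genes were mostly lower in siHP1γ cells without Dex, where 4 of 5 passed the test. BUB3, a part of the mitotic checkpoint complex, stood at 418, 378 and 399 CPM in siNS Eth, 267, 257 and 272 CPM in siHP1γ Eth and 375, 335 and 357 CPM in siPRMT5 Eth libraries. With Dex, BUB3 stood at 335, 316 and 329 CPM in siNS Dex, 271, 250.1 and 248 CPM in siHP1γ Dex and 380.1, 368 and 354 CPM in siPRMT5 Dex libraries. It was the lowest of the checkpoint genes against siNS, at -0.59 ± 0.06 (adjusted p = 1.17e-07) without Dex and -0.35 ± 0.06 (adjusted p = 0.000188) with Dex, with no overlap. With Dex against Eth, BUB3 fell in siNS cells (-0.29 ± 0.06, adjusted p = 0.00299) and did not pass the test in siPRMT5 cells (0.05 ± 0.06, adjusted p = 0.702). Against siNS, BUB3 in siPRMT5 cells was lower without Dex, at -0.16 ± 0.06 (adjusted p = 0.0368), and higher with Dex, by 0.17 ± 0.06 (adjusted p = 0.0321). These calls were lost without siNS Eth replicate 1 or 3 or siPRMT5 Eth replicate 2 or 3 (adjusted p from 0.0678 to 0.165) and without siNS Dex replicate 2 or 3 or siPRMT5 Dex replicate 1 or 2 (adjusted p from 0.0571 to 0.0987). TTK, the kinase that starts checkpoint signalling, stood at 176, 152 and 160.2 CPM in siNS Eth, 127, 139.7 and 136 CPM in siHP1γ Eth and 167, 184 and 189 CPM in siPRMT5 Eth libraries. With Dex, TTK stood at 135, 152 and 149 CPM in siNS Dex, 163, 129.6 and 119 CPM in siHP1γ Dex and 178, 209.5 and 175 CPM in siPRMT5 Dex libraries. It was lower in siHP1γ cells without Dex, at -0.28 ± 0.10 (adjusted p = 0.0278), a call lost without siNS Eth replicate 1 or siHP1γ Eth replicate 1 or 3 (adjusted p from 0.0544 to 0.114), and higher in siPRMT5 cells with Dex, by 0.37 ± 0.09 (adjusted p = 0.0026).

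MAD2L1, which binds and inhibits CDC20, stood at 95.3, 88.3 and 90.7 CPM in siNS Eth, 59.9, 66.9 and 70.6 CPM in siHP1γ Eth and 75.1, 65.98 and 75.1 CPM in siPRMT5 Eth libraries. With Dex, MAD2L1 stood at 72.4, 69.7 and 71.2 CPM in siNS Dex, 84.9, 63.2 and 62.3 CPM in siHP1γ Dex and 70.1, 80.4 and 68.01 CPM in siPRMT5 Dex libraries. Without Dex it was below all siNS values after both depletions, at -0.47 ± 0.10 (adjusted p = 0.0006) in siHP1γ and -0.34 ± 0.10 (adjusted p = 0.00664) in siPRMT5 cells, and with Dex the values were -0.02 ± 0.10 and 0.04 ± 0.10. The first siHP1γ Dex library was again the highest of its condition, as it was for CDK1, TTK, NUF2, ASPM, ECT2 and KIF11. For PLK1 and INCENP it was the lowest. BUB1, a kinase that recruits other checkpoint proteins to kinetochores, was lower in siHP1γ cells, at -0.35 ± 0.06 (adjusted p = 7.42e-05) and -0.30 ± 0.06 (adjusted p = 0.000634). BUB1 was higher in siPRMT5 cells with Dex by 0.18 ± 0.06 (adjusted p = 0.017), a call lost without siNS Dex replicate 3 or siPRMT5 Dex replicate 2 (adjusted p from 0.0522 to 0.104). BUB1B, or BUBR1, stayed between 125 and 156 CPM, with a largest difference of -0.14 ± 0.08 (adjusted p = 0.187) after HP1γ depletion with Dex.

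Of the kinetochore genes, NDC80 changed in all 4 comparisons. NDC80, the microtubule-binding subunit of the NDC80 complex, stood at 117, 112 and 112 CPM in siNS Eth, 84.1, 80.2 and 80.2 CPM in siHP1γ Eth and 157, 147 and 149.7 CPM in siPRMT5 Eth libraries. With Dex, NDC80 stood at 101, 101 and 96.04 CPM in siNS Dex, 87.7, 80.2 and 83.8 CPM in siHP1γ Dex and 162, 162 and 159.7 CPM in siPRMT5 Dex libraries. These were tight values, and those of the 3 siRNAs did not overlap in either treatment. NDC80 was lower, at -0.48 ± 0.06 (adjusted p = 2.2e-06) and -0.24 ± 0.06 (adjusted p = 0.00542) after HP1γ depletion. NDC80 was higher by 0.41 ± 0.06 (adjusted p = 6.3e-06) and 0.70 ± 0.06 (adjusted p = 1.3e-09) after PRMT5 depletion. NUF2, its partner in the complex, stood at 99.9, 90.9 and 93.4 CPM in siNS Eth, 76.6, 81.8 and 73.5 CPM in siHP1γ Eth and 104, 98.9 and 108 CPM in siPRMT5 Eth libraries. With Dex, NUF2 stood at 67.04, 79.97 and 82.98 CPM in siNS Dex, 88.8, 75.9 and 75.96 CPM in siHP1γ Dex and 94.5, 110.4 and 91.2 CPM in siPRMT5 Dex libraries. It was lower in siHP1γ cells without Dex, at -0.29 ± 0.09 (adjusted p = 0.0133), and higher in siPRMT5 cells with Dex, by 0.37 ± 0.09 (adjusted p = 0.00149), and the first of these calls was lost without siNS Eth replicate 1 or siHP1γ Eth replicate 3 (adjusted p from 0.0528 to 0.0597). SPC25, the third gene of this complex among the members, had too few counts to be tested.

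CENPF, a large protein of the outer kinetochore, stood at 521, 477 and 462 CPM in siNS Eth, 450.1, 506 and 420.00 CPM in siHP1γ Eth and 578, 865 and 707 CPM in siPRMT5 Eth libraries. With Dex, CENPF stood at 409.9, 601 and 560.2 CPM in siNS Dex, 501, 498 and 375 CPM in siHP1γ Dex and 592, 905 and 679 CPM in siPRMT5 Dex libraries. The siPRMT5 libraries spread widely, with the second replicate highest in both treatments. CENPF was higher by 0.56 ± 0.15 (adjusted p = 0.00314) without Dex and by 0.47 ± 0.15 (adjusted p = 0.0109) with Dex, where the libraries overlapped and the call was lost without siNS Dex replicate 1 or siPRMT5 Dex replicate 2 (adjusted p from 0.0944 to 0.123). After HP1γ depletion it was -0.09 ± 0.15 and -0.19 ± 0.15. CENPA, the histone H3 variant that marks centromeres, ranged from 23.0 to 48.9 CPM, was lower in siHP1γ cells without Dex, at -0.44 ± 0.11 (adjusted p = 0.00398) and higher in siPRMT5 cells with Dex by 0.36 ± 0.11 (adjusted p = 0.00872), a call lost without siPRMT5 Dex replicate 1 (adjusted p = 0.0689). CENPE, a kinetochore kinesin, had the largest spread among replicates of the 44 genes, a mean CV of 18.1%, and did not pass the test in these comparisons. Its larger values were -0.26 ± 0.17 (adjusted p = 0.252) after HP1γ depletion and 0.28 ± 0.17 (adjusted p = 0.189) after PRMT5 depletion.

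**Figure D3:**
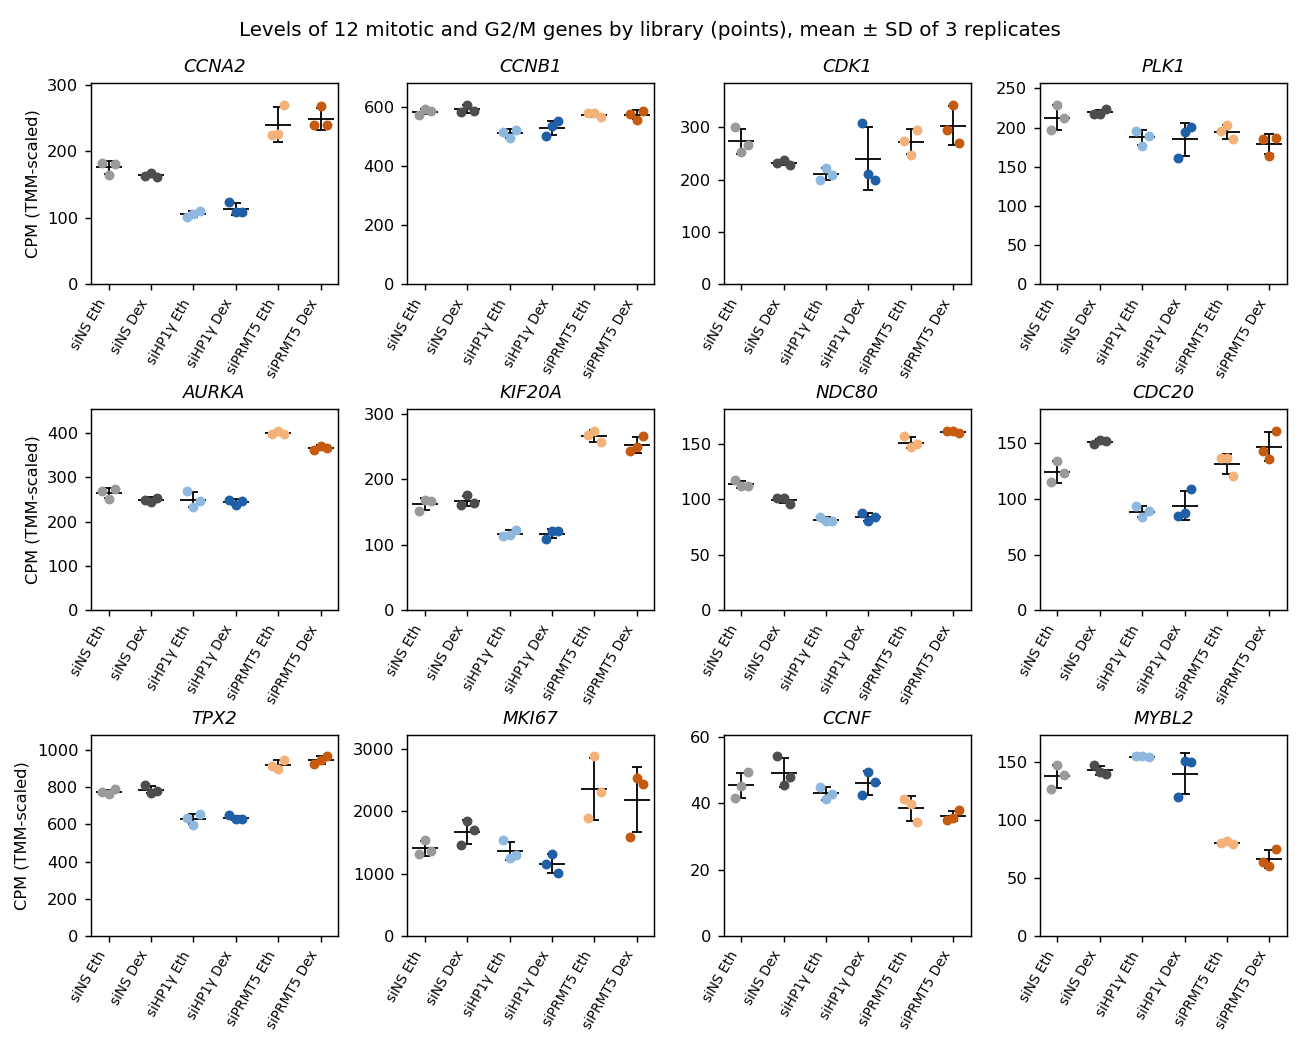
CPM of 12 of the genes in each library (points), with the mean and SD of the 3 replicates of each condition (lines), on linear axes that start at 0. CCNA2, NDC80, KIF20A and TPX2 separate the 3 siRNAs without overlap, AURKA rises and CCNF and MYBL2 fall in siPRMT5 cells, and CDK1 and MKI67 show wide spreads in depleted cells.

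Among the mitotic kinesins, KIF20A showed the largest separation. KIF20A, or MKLP2, carries the passenger complex to the central spindle. It stood at 151, 168 and 167 CPM in siNS Eth, 113, 114 and 123 CPM in siHP1γ Eth and 268, 274 and 256 CPM in siPRMT5 Eth libraries. With Dex, KIF20A stood at 161, 175 and 163 CPM in siNS Dex, 108, 121 and 121 CPM in siHP1γ Dex and 243, 249 and 266 CPM in siPRMT5 Dex libraries. The siHP1γ values lay lowest, the siNS values between and the siPRMT5 values highest, with no overlap in either treatment. KIF20A was lower, at -0.48 ± 0.07 (adjusted p = 9.15e-06) and -0.51 ± 0.07 (adjusted p = 3.98e-06) after HP1γ depletion. KIF20A was higher by 0.71 ± 0.07 (adjusted p = 4.98e-09) and 0.60 ± 0.07 (adjusted p = 7.73e-08) after PRMT5 depletion. KIF23, or MKLP1, the kinesin of centralspindlin, stood at 239, 219.5 and 229 CPM in siNS Eth, 219.9, 218 and 206 CPM in siHP1γ Eth and 283, 324 and 313 CPM in siPRMT5 Eth libraries. With Dex, KIF23 stood at 225, 239 and 243 CPM in siNS Dex, 221, 219.99 and 213 CPM in siHP1γ Dex and 285, 310.5 and 309 CPM in siPRMT5 Dex libraries. It was higher in siPRMT5 cells, by 0.42 ± 0.07 (adjusted p = 1e-05) and 0.36 ± 0.06 (adjusted p = 7.6e-05), and did not pass the test in siHP1γ cells (-0.09 ± 0.07 and -0.11 ± 0.07). KIF2C, which depolymerises microtubules at centromeres, was lower in siHP1γ cells, at -0.23 ± 0.07 (adjusted p = 0.0187) and -0.31 ± 0.07 (adjusted p = 0.00215), the former lost without siNS Eth replicate 2 or siHP1γ Eth replicate 1 (adjusted p from 0.0712 to 0.103), and higher in siPRMT5 cells without Dex by 0.27 ± 0.07 (adjusted p = 0.00372). KIF4A, a chromosome-bound kinesin, was higher in siPRMT5 cells by 0.26 ± 0.07 (adjusted p = 0.00404) and 0.32 ± 0.07 (adjusted p = 0.000582), and lower in siHP1γ cells with Dex, at -0.21 ± 0.07 (adjusted p = 0.0351), a call lost without siNS Dex replicate 1, 2 or 3 or siHP1γ Dex replicate 1 or 2 (adjusted p from 0.0513 to 0.141). KIF11, which pushes spindle poles apart, ranged from 191 to 294 CPM and did not pass the test, with -0.24 ± 0.10 (adjusted p = 0.0643) without Dex after HP1γ depletion as its largest difference.

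The spindle proteins were lower in siHP1γ cells for 4 of the 5 tested genes without Dex and 3 of 5 with Dex, and higher in siPRMT5 cells for 4 of 5 in both treatments. TPX2, which activates AURKA and seeds microtubules, was lower, at -0.30 ± 0.06 (adjusted p = 0.000163) and -0.31 ± 0.06 (adjusted p = 0.000173) after HP1γ depletion. TPX2 was higher by 0.25 ± 0.06 (adjusted p = 0.000822) and 0.27 ± 0.06 (adjusted p = 0.000374) after PRMT5 depletion. DLGAP5, which stabilises kinetochore microtubules, was lower, at -0.46 ± 0.08 (adjusted p = 5.75e-05) and -0.35 ± 0.08 (adjusted p = 0.00152), and higher by 0.31 ± 0.08 (adjusted p = 0.0019) and 0.34 ± 0.08 (adjusted p = 0.000826). Neither TPX2 nor DLGAP5 overlapped the siNS values in any of the 4 comparisons. CKAP2, a microtubule-associated protein, stood at 478, 425 and 440.4 CPM in siNS Eth, 414, 405 and 379 CPM in siHP1γ Eth and 581, 642 and 629 CPM in siPRMT5 Eth libraries. With Dex, CKAP2 stood at 334, 394 and 383 CPM in siNS Dex, 414, 391 and 332 CPM in siHP1γ Dex and 509, 599 and 508 CPM in siPRMT5 Dex libraries. Its siPRMT5 values were above all siNS values, by 0.46 ± 0.08 (adjusted p = 6.5e-05) and 0.54 ± 0.08 (adjusted p = 9.17e-06), and its siHP1γ values did not pass the test (-0.17 ± 0.08 and 0.03 ± 0.08). ASPM, a protein of spindle poles, stood at 245, 213 and 221 CPM in siNS Eth, 175, 174 and 166 CPM in siHP1γ Eth and 263, 353 and 325 CPM in siPRMT5 Eth libraries. With Dex, ASPM stood at 198, 233 and 229 CPM in siNS Dex, 219.5, 179 and 145 CPM in siHP1γ Dex and 249, 382 and 279 CPM in siPRMT5 Dex libraries. It was higher in siPRMT5 cells by 0.47 ± 0.13 (adjusted p = 0.00538) and 0.46 ± 0.13 (adjusted p = 0.00565), and lower in siHP1γ cells without Dex, at -0.40 ± 0.13 (adjusted p = 0.0241). The second of these calls was lost without siPRMT5 Dex replicate 2 (adjusted p = 0.0872) and the third without siNS Eth replicate 1 or siHP1γ Eth replicate 2 or 3 (adjusted p from 0.0539 to 0.0878). PRC1, which bundles antiparallel microtubules at the midzone, was lower in siHP1γ cells, at -0.50 ± 0.12 (adjusted p = 0.00153) and -0.35 ± 0.11 (adjusted p = 0.0235), and the call with Dex was lost without siNS Dex replicate 1 or 2 or siHP1γ Dex replicate 2 or 3 (adjusted p from 0.0599 to 0.119). PRC1 is an uncertain measure, since 61.9% of its exon bases lie in another annotated gene.

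All 3 cytokinesis genes were lower in siHP1γ cells without Dex. ANLN, or anillin, the scaffold of the contractile ring, stood at 669, 656 and 634 CPM in siNS Eth, 490.4, 445 and 455 CPM in siHP1γ Eth and 630.3, 762 and 704 CPM in siPRMT5 Eth libraries. With Dex, ANLN stood at 589.8, 702 and 658 CPM in siNS Dex, 523, 475 and 431 CPM in siHP1γ Dex and 652, 793 and 706 CPM in siPRMT5 Dex libraries. It was below all siNS values in siHP1γ cells, at -0.49 ± 0.08 (adjusted p = 6.06e-05) and -0.45 ± 0.08 (adjusted p = 0.000268), and overlapped them in siPRMT5 cells (0.10 ± 0.08 and 0.14 ± 0.08). RACGAP1, the partner of KIF23 in centralspindlin, stood at 148, 159 and 152 CPM in siNS Eth, 134, 127 and 135 CPM in siHP1γ Eth and 215, 228 and 223 CPM in siPRMT5 Eth libraries. With Dex, RACGAP1 stood at 156, 156 and 159.97 CPM in siNS Dex, 117, 129.6 and 134 CPM in siHP1γ Dex and 206, 211 and 223 CPM in siPRMT5 Dex libraries. The 3 siRNAs did not overlap in either treatment: RACGAP1 was lower in siHP1γ cells, at -0.21 ± 0.06 (adjusted p = 0.0156) and -0.31 ± 0.06 (adjusted p = 0.000833). RACGAP1 was higher in siPRMT5 cells by 0.54 ± 0.06 (adjusted p = 2.03e-07) and 0.44 ± 0.06 (adjusted p = 4.22e-06). The call after HP1γ depletion without Dex was lost without siNS Eth replicate 2 or siHP1γ Eth replicate 2 (adjusted p from 0.0598 to 0.0722). ECT2, which activates RhoA at the cleavage site, was lower in siHP1γ cells without Dex, at -0.46 ± 0.10 (adjusted p = 0.000871) and higher in siPRMT5 cells with Dex by 0.27 ± 0.10 (adjusted p = 0.0262), a call lost without siNS Dex replicate 1 or siPRMT5 Dex replicate 2 (adjusted p from 0.124 to 0.183).

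MKI67 and TOP2A, used as proliferation markers, had wide spreads. MKI67, which coats mitotic chromosomes, stood at 1319, 1547 and 1357 CPM in siNS Eth, 1531, 1254 and 1299 CPM in siHP1γ Eth and 1885, 2878 and 2306 CPM in siPRMT5 Eth libraries. With Dex, MKI67 stood at 1459, 1845 and 1700.5 CPM in siNS Dex, 1159, 1309 and 1013 CPM in siHP1γ Dex and 1581, 2539 and 2434 CPM in siPRMT5 Dex libraries. Without Dex, the siPRMT5 libraries were above all siNS libraries and the siHP1γ libraries overlapped them. MKI67 was higher after PRMT5 depletion by 0.74 ± 0.14 (adjusted p = 0.000145) without Dex and 0.39 ± 0.14 (adjusted p = 0.0291) with Dex, and the latter call was lost without siNS Dex replicate 1 or 3 or siPRMT5 Dex replicate 2 or 3 (adjusted p from 0.0562 to 0.161). After HP1γ depletion it was -0.05 ± 0.14 without Dex and was lower with Dex, at -0.52 ± 0.14 (adjusted p = 0.00834). TOP2A, which untangles sister DNA, stood at 508, 459.7 and 474 CPM in siNS Eth, 352, 366 and 345 CPM in siHP1γ Eth and 478, 629.5 and 570.2 CPM in siPRMT5 Eth libraries. With Dex, TOP2A stood at 416, 522 and 461 CPM in siNS Dex, 416, 387 and 317 CPM in siHP1γ Dex and 511, 681 and 584 CPM in siPRMT5 Dex libraries. It was lower in siHP1γ cells, at -0.44 ± 0.11 (adjusted p = 0.00236) and -0.32 ± 0.11 (adjusted p = 0.0281). TOP2A was higher in siPRMT5 cells with Dex by 0.34 ± 0.11 (adjusted p = 0.00984). The 2 calls with Dex were lost without siNS Dex replicate 2 or 3 or siHP1γ Dex replicate 3 (adjusted p from 0.0622 to 0.153) and without siNS Dex replicate 1 or siPRMT5 Dex replicate 2 (adjusted p from 0.0664 to 0.0874).

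The transcription factors of this gene programme did not follow the direction of most members. FOXM1, which drives transcription in G2, stood at 311, 334 and 310.3 CPM in siNS Eth, 433, 359 and 419 CPM in siHP1γ Eth and 326, 334 and 361 CPM in siPRMT5 Eth libraries. With Dex, FOXM1 stood at 354, 307 and 353 CPM in siNS Dex, 348, 381 and 369 CPM in siHP1γ Dex and 324, 339 and 376 CPM in siPRMT5 Dex libraries. It was above all siNS values in siHP1γ cells without Dex, by 0.34 ± 0.08 (adjusted p = 0.00131), against 0.11 ± 0.08 with Dex, and its siPRMT5 values overlapped those of siNS (0.10 ± 0.08 and 0.03 ± 0.08). MYBL2, or B-MYB, which binds the MuvB complex, stood at 127, 147 and 138 CPM in siNS Eth, 154, 154 and 154 CPM in siHP1γ Eth and 79.7, 81.5 and 78.9 CPM in siPRMT5 Eth libraries. With Dex, MYBL2 stood at 147, 141 and 139 CPM in siNS Dex, 119, 150.5 and 149 CPM in siHP1γ Dex and 63.7, 60.3 and 75.1 CPM in siPRMT5 Dex libraries. Every siPRMT5 library was below every siNS and siHP1γ library. MYBL2 fell by 0.78 on the log2 scale without Dex (adjusted p = 6.74e-08) and by 1.10 with Dex (adjusted p = 1.49e-10), to 58.3% and 46.5% of siNS, and it was 0.17 ± 0.08 and -0.03 ± 0.08 after HP1γ depletion.

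Compared directly, with no siNS library involved, siPRMT5 cells held more of most mitotic and G2/M transcripts than siHP1γ cells. With Dex, 34 of the 44 genes were higher in siPRMT5 than in siHP1γ cells, against 24.4% of all genes tested, and 2 (MYBL2 and CCNF) were lower, against 25.5%. Without Dex, 36 were higher, against 23.4%, and 2 (MYBL2 and FOXM1) were lower, against 25.0%. The median log2 difference of siPRMT5 minus siHP1γ was 0.49 with Dex and 0.52 without. KIF20A differed by 1.11 ± 0.07 (adjusted p = 9.8e-13) with Dex and 1.19 ± 0.07 (adjusted p = 4.01e-13) without. CCNA2 differed by 1.13 ± 0.08 (adjusted p = 8.93e-12) and 1.18 ± 0.08 (adjusted p = 5.42e-12). Among the genes higher in siPRMT5 cells, these 2 differed most, and NDC80 followed, with 0.94 and 0.89. MYBL2 was -1.07 with Dex (adjusted p = 1.56e-10) and -0.95 without (adjusted p = 1.64e-09). PLK1, PLK4, MAD2L1, BUB1B and KIF11 passed this test in neither treatment. Their differences lay between -0.05 and 0.19 with Dex and between -0.03 and 0.20 without.

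Dex itself changed few of these genes, and in siNS cells their share was below that of all genes tested only under the fold limit. At an adjusted p under 0.01 and at least 1.5-fold, 0 of the 44 genes responded in siNS cells (2.71% of all genes tested), in siHP1γ cells (1.67%) or in siPRMT5 cells (5.44%), with edgeR or with DESeq2. At an unadjusted p under 0.05, 12, 2 and 4 of the 44 differed between Dex and Eth in siNS, siHP1γ and siPRMT5 cells, or 27.3%, 4.55% and 9.09%, against 22.4%, 18% and 26.7% of all genes tested. At an adjusted p under 0.05 without a fold limit, 5 genes responded in siNS cells, against 9.16% of all genes tested. CDC20 rose with Dex, by 0.29 ± 0.09 (adjusted p = 0.0368), and MAD2L1 (-0.36 ± 0.10, adjusted p = 0.0172), NUF2 (-0.31 ± 0.09, adjusted p = 0.0279), BUB3 (-0.29 ± 0.06, adjusted p = 0.00299) and CKAP2 (-0.27 ± 0.08, adjusted p = 0.0366) fell. In each of these 5 genes, the values given above show no overlap between the siNS Eth and siNS Dex libraries. This does not set them apart. The libraries did not overlap either in members that did not pass, such as CCNB2 (adjusted p = 0.24), CDK1 (adjusted p = 0.229) and BUB1 (adjusted p = 0.335). The count was 1 without siNS Eth replicate 1 or 3, 2 without siNS Dex replicate 1 or 3 and 3 without siNS Dex replicate 2, and 7 with DESeq2. The median log2 fold change of the 44 genes with Dex was -0.05 in siNS, 0.006 in siHP1γ and -0.03 in siPRMT5 cells.

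By the same adjusted p under 0.05, 0 of the 44 genes responded to Dex in siHP1γ cells, against 5.55% of all genes tested, with edgeR and with DESeq2. In siPRMT5 cells, 1 of 44 did, against 16.0%: MYBL2 was lower with Dex, at -0.27 ± 0.09 (adjusted p = 0.0363), from 79.7, 81.5 and 78.9 to 63.7, 60.3 and 75.1 CPM. That call was lost without any 1 of siNS Dex replicate 1 or 3, siHP1γ Eth replicate 1 or 3, siPRMT5 Eth replicate 1, 2 or 3 or siPRMT5 Dex replicate 1. Of the members that did not pass, CENPA in siHP1γ cells had the largest difference, 0.29 ± 0.11 (adjusted p = 0.145).

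**Figure D4:**
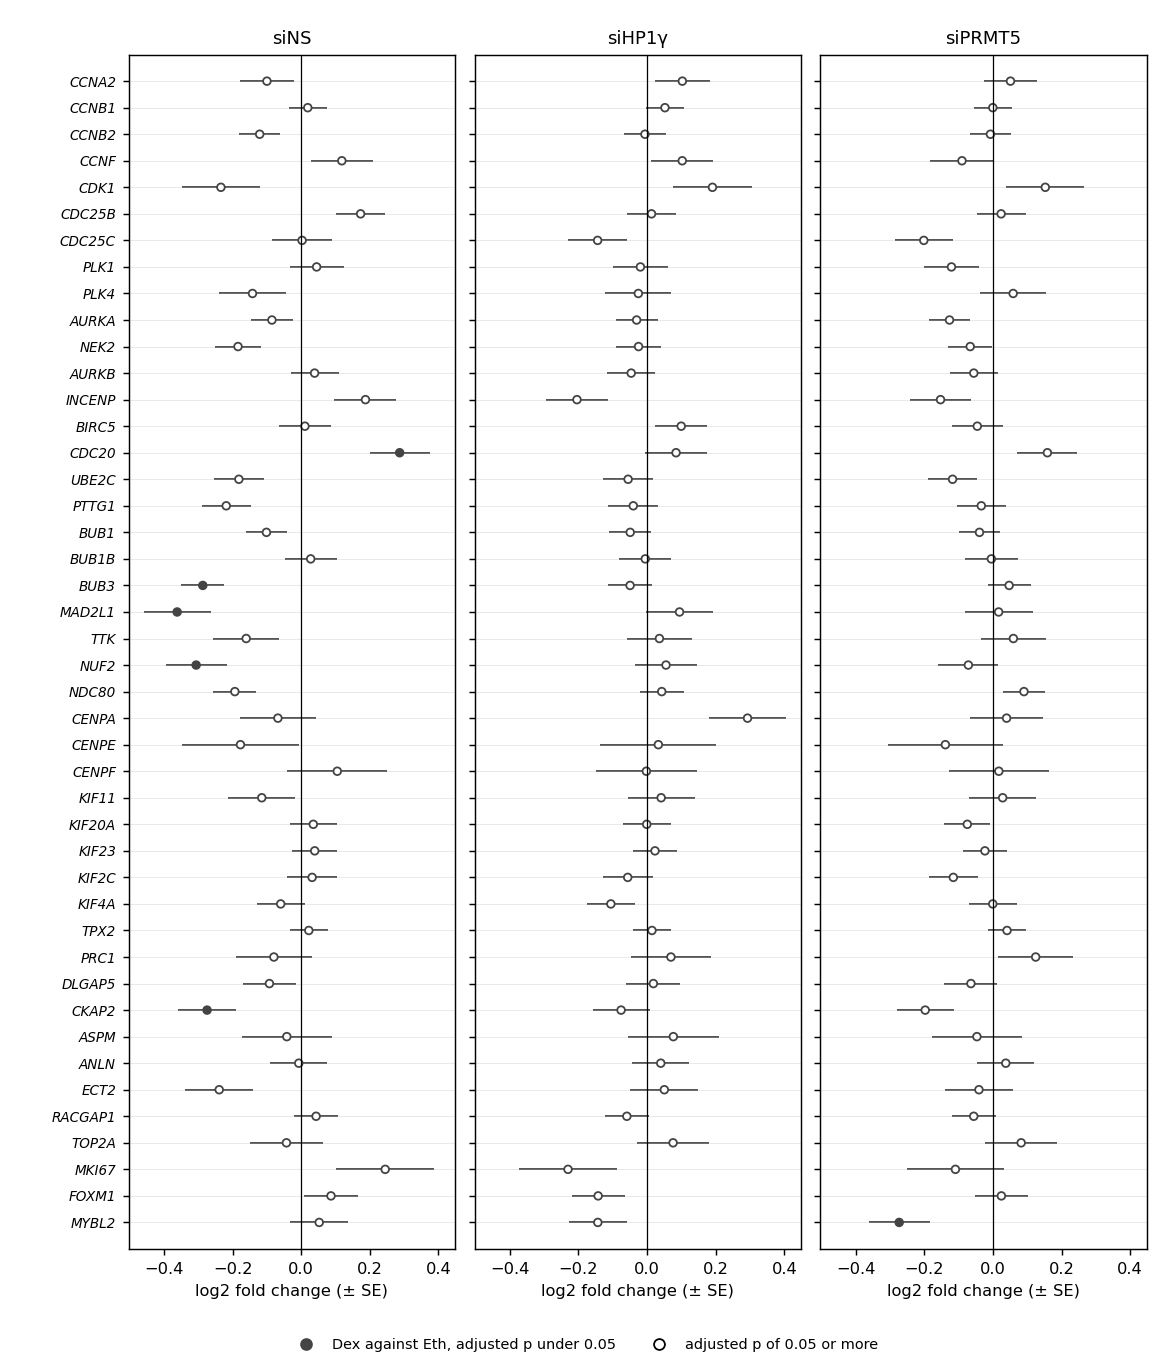
Log2 fold change of each of the 44 genes with Dex against Eth, in siNS, siHP1γ and siPRMT5 cells. Bars are SE from the edgeR fit with 3 libraries per condition, and filled points have an adjusted p under 0.05. Filled points are CDC20, BUB3, MAD2L1, NUF2 and CKAP2 in siNS cells and MYBL2 in siPRMT5 cells, and no gene reached a 1.5-fold change.

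Whether a depletion altered the Dex response was tested as an interaction, the Dex response in depleted cells minus that in siNS cells. After HP1γ depletion, 0 of the 44 genes passed at an adjusted p under 0.05, against 0.399% of all genes tested, with edgeR and with DESeq2, and 10 had an unadjusted p under 0.05, or 22.7% against 17.2% of all genes tested. After PRMT5 depletion, 1 gene passed, against 3.80% of all genes tested. This was BUB3, whose response to Dex was -0.29 in siNS and 0.05 in siPRMT5 cells, a difference of 0.33 ± 0.09 (adjusted p = 0.0317). The call was lost without siNS Eth replicate 1 or 3 or siNS Dex replicate 2 or 3 or siPRMT5 Eth replicate 2 or siPRMT5 Dex replicate 1 or 2 (adjusted p from 0.0588 to 0.0949), while 4 genes passed without siHP1γ Dex replicate 1. MAD2L1 (0.38 ± 0.14, adjusted p = 0.129), CDK1 (0.39 ± 0.16, adjusted p = 0.185) and NDC80 (0.28 ± 0.09, adjusted p = 0.0662) had differences in the same direction, and INCENP (-0.34 ± 0.13, adjusted p = 0.132), MYBL2 (-0.33 ± 0.12, adjusted p = 0.138) and MKI67 (-0.35 ± 0.20, adjusted p = 0.348) in the other, without passing the test.

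Other genes of mitosis were read from lists chosen by function, with the same tests and beside the same shares of all genes tested: 15.2% and 12.3% lower after HP1γ depletion without and with Dex, and 20.6% higher and 21.6% or 21.9% lower after PRMT5 depletion. Of 26 other spindle and cytokinesis genes tested, 16 were higher and 1 lower after PRMT5 depletion without Dex and 15 higher and 1 lower with Dex, and 9 and 10 were lower after HP1γ depletion. The median log2 fold changes were 0.26 and 0.28 after PRMT5 depletion, and -0.18 and -0.13 after HP1γ depletion. LMNB1, or lamin B1, of the nuclear envelope, showed the largest opposite changes, -1.10 and -1.11 after HP1γ depletion and 0.91 and 0.83 after PRMT5 depletion, with an adjusted p of at most 7.78e-11 in each. HMGB2, a chromatin protein, rose to 200.1% of siNS (adjusted p = 2.38e-11) after PRMT5 depletion with Dex, and KIF18B, a kinesin of spindle microtubules, was lower, at -0.63 ± 0.09 (adjusted p = 6.85e-06) after HP1γ depletion with Dex. Among 20 genes of condensin, cohesin and separase, 9 without and 10 with Dex were higher after PRMT5 depletion (3 and 2 were lower), and 7 were lower after HP1γ depletion in each treatment (1 was higher with Dex). NCAPD3 (-0.52 ± 0.07, adjusted p = 4.97e-06) and NCAPD2 (-0.37 ± 0.07, adjusted p = 0.000264), of condensin, were lower after HP1γ depletion with Dex. SGO2, which protects cohesin at centromeres, was higher after PRMT5 depletion with Dex (0.64 ± 0.11, adjusted p = 6.23e-05), and SMC1A, of the cohesin ring, was lower (-0.78 ± 0.08, adjusted p = 3.07e-08).

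Of 30 other kinetochore and centromere genes tested, 6 were higher and 7 lower after PRMT5 depletion without Dex, and 9 higher and 7 lower with Dex. Without Dex these are 20% and 23.3%, near the shares of all genes tested, and with Dex 30% and 23.3%. SKA2, of the SKA complex at kinetochores, and SPC24, a subunit of the NDC80 complex, were the lowest, at -1.92 ± 0.10 (adjusted p = 3.43e-14) and -1.01 ± 0.13 (adjusted p = 4.56e-07) with Dex. After HP1γ depletion, 15 of these 30 were lower without Dex and 10 with Dex (2 were higher), with SKA3 (-0.60 ± 0.08, adjusted p = 4.97e-06) and ZW10 (-0.58 ± 0.07, adjusted p = 5.84e-07), both kinetochore proteins, lowest with Dex. Of 17 APC/C subunits and partners, 6 and 3 were lower after HP1γ depletion without and with Dex, with CDC27, a subunit of the complex, at -1.04 ± 0.11 (adjusted p = 5e-08) and its inhibitor FBXO5 at -0.25 ± 0.09 (adjusted p = 0.0345) with Dex. After PRMT5 depletion, 4 and 3 were higher, or 23.5% and 17.6%, near the share of all genes tested, and 2 in each treatment were lower, or 11.8%. The called genes include the subunits ANAPC16 at 0.47 ± 0.07 (adjusted p = 1.11e-05) and CDC26 at -0.69 ± 0.20 (adjusted p = 0.00815) with Dex.

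**Figure D5:**
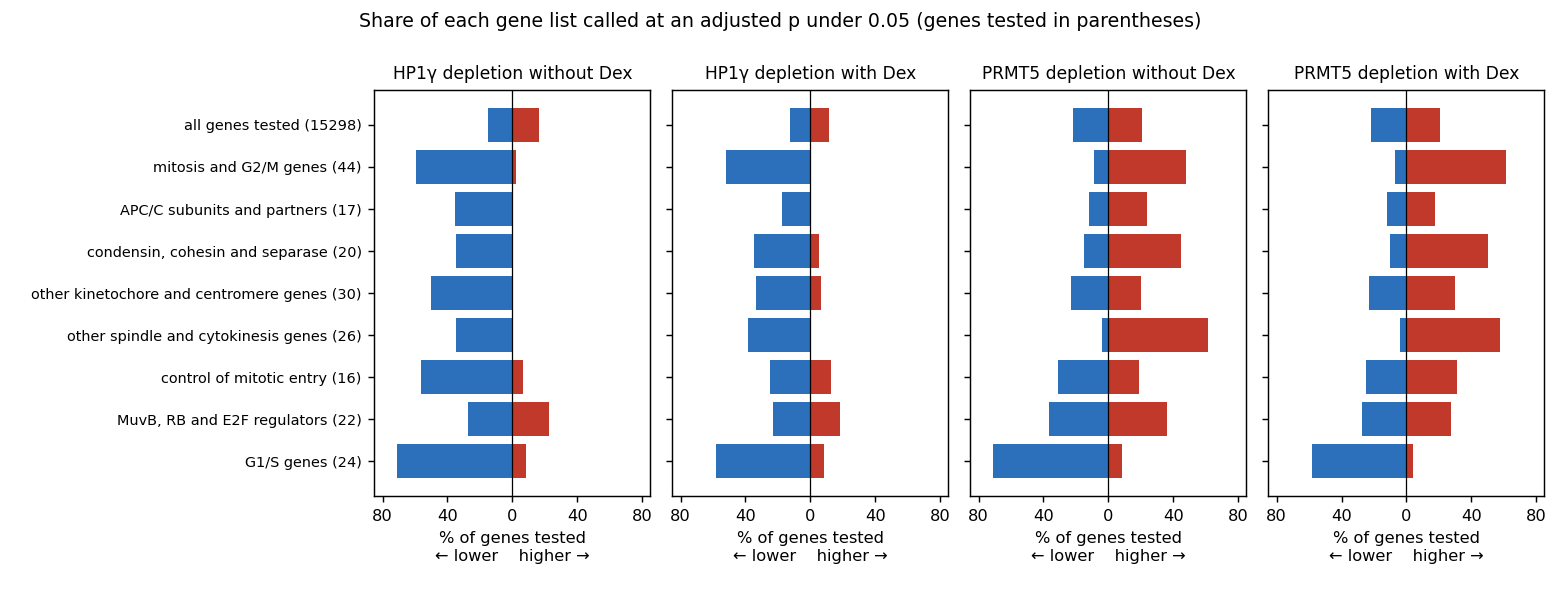
Share of each gene list called lower (blue, to the left) or higher (red, to the right) at an adjusted p under 0.05 in the 4 depletion comparisons, in percent of the genes tested, whose number is in parentheses. The mitosis and G2/M genes and the other spindle and cytokinesis genes lie to the left after HP1γ depletion and to the right after PRMT5 depletion, and the G1/S genes lie to the left after both.

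Genes of the preceding phase moved like the mitotic genes after HP1γ depletion, but not after PRMT5 depletion. Of 24 G1/S genes, 17 were lower without Dex after each depletion, and 14 were lower with Dex after each, while 1 or 2 were higher, with medians of -0.37 and -0.43 after HP1γ depletion and -0.32 and -0.30 after PRMT5 depletion. RRM2 (-0.94 ± 0.07, adjusted p = 2.2e-10), which makes deoxyribonucleotides, and UHRF1 (-0.84 ± 0.12, adjusted p = 7.98e-06), which maintains DNA methylation, were lowest after HP1γ depletion with Dex. MCM6 (-1.33 ± 0.07, adjusted p = 3.43e-14) and GINS2 (-1.02 ± 0.08, adjusted p = 1.71e-10), of the replicative helicase, were lowest after PRMT5 depletion with Dex. After PRMT5 depletion, the median of the mitotic and G2/M genes was thus above 0 and that of the G1/S genes below it.

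Among 16 genes that control mitotic entry, 9 were lower and 1 higher after HP1γ depletion without Dex, and 4 lower and 2 higher with Dex. WEE1, the kinase that restrains CDK1, was lower, at -1.04 ± 0.10 (adjusted p = 1.38e-08) with Dex, and GADD45B, a stress-induced gene of the G2/M checkpoint, at -0.90 ± 0.10 (adjusted p = 3.59e-07). After PRMT5 depletion, 3 were higher and 5 lower without Dex, and 5 higher and 4 lower with Dex. These are 18.8% and 31.3%, and then 31.3% and 25.0%, of which 18.8% and 25.0% are near the shares of all genes tested. The CDK inhibitor genes CDKN2C (0.98 ± 0.10, adjusted p = 1.62e-08) and CDKN1B (0.93 ± 0.08, adjusted p = 1.86e-09) showed the largest changes with Dex. CDKN1A, which encodes p21, moved the other way from most mitotic genes: it was higher after HP1γ depletion, by 0.52 ± 0.08 (adjusted p = 1.2e-05) without and 0.29 ± 0.08 (adjusted p = 0.00753) with Dex, and lower after PRMT5 depletion, at -0.45 ± 0.08 (adjusted p = 8.69e-05) and -0.43 ± 0.08 (adjusted p = 9.8e-05). CDKN1B, which encodes p27, was also higher after PRMT5 depletion without Dex, by 1.09 ± 0.08 (adjusted p = 9.54e-11), and after HP1γ depletion with Dex, by 0.33 ± 0.09 (adjusted p = 0.00625). Of the 22 MuvB, RB and E2F regulators, 5 were higher and 6 lower after HP1γ depletion without Dex, and 4 and 5 with Dex. After PRMT5 depletion, 8 were higher and 8 lower without Dex, or 36.4% each way, and 6 and 6 with Dex, or 27.3% each way. All genes tested were likewise called in both directions, at shares of 11.7% to 21.9%. TFDP1 (-0.97 ± 0.07, adjusted p = 1.18e-10) and E2F2 (-0.87 ± 0.23, adjusted p = 0.00799) were lowest after HP1γ depletion with Dex, and MYBL1 (-0.78 ± 0.11, adjusted p = 2.24e-06) and E2F1 (-0.77 ± 0.10, adjusted p = 1.26e-06) after PRMT5 depletion with Dex.

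The replicate spread differed among the members. The mean CV over the 6 conditions was 6.22% at the median of the 44 genes, from 2.54% for CCNB1 and 2.58% for TPX2 to 14.9% for MKI67, 15.5% for CENPF and 18.1% for CENPE. Counts of some members are uncertain because other genes overlap their exons and the strand setting of the counting is not given in the sources used here. On hg38 with GENCODE 44, NUSAP1 (chromosome 15, 41320794 to 41381050, plus strand) shares 86.8% of its exon bases with other genes, among them OIP5 and OIP5-AS1, and PRC1 (chromosome 15, 90966040 to 90995629, minus strand) shares 61.9%, in part with its antisense gene PRC1-AS1. SPC25 (chromosome 2, 168834132 to 168913371, minus strand) overlaps NOSTRIN and G6PC2 but shares 0% of its exon bases. Whether these overlaps set the low counts of NUSAP1 and SPC25 was not tested. Outside the members, KIFC1, SKA1 and ARHGAP11A were also at or near 0 in every library, at most 0.544 CPM. Why these genes had so few counts was not tested, so the low counts are no measure of expression. FOXM1 shares 15.9% with ITFG2 and RHNO1, PLK1 12.8%, CCNF 11.8%, BUB1B 10.2% and CCNA2 9.24%, and every other tested member shares less. Processed copies with a symbol of their own exist for some members, such as BUB3P1 for BUB3 and AURKAP1 and AURKAP2 for AURKA, and reads of a gene and its copy could be counted at either.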

How the data were processed

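The 6 conditions, with 3 replicates each, were taken from the sample labels. The authors prepared libraries with Lexogen kits, mapped reads on hg38 with Bowtie2 (2.4.2), counted them per gene symbol with HTSeq (0.9.1) and deposited raw counts for each library. The annotation, strand setting and read length are not given in the sources used here. The authors also deposited their own DESeq2 comparisons (log2 fold changes and adjusted p-values), which were not used.

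From the counts, edgeR 4.0.16 in R 4.3.3 (filterByExpr, 15298 genes kept, TMM) fitted the 18 libraries together (12 residual degrees of freedom). Comparisons were tested by quasi-likelihood with Benjamini-Hochberg adjustment. CPM were scaled by TMM. The threshold for depletions, an adjusted p under 0.05, followed the study. For Dex, the study gives 1.5-fold in its text and 2-fold with an adjusted p under 0.01 in a legend, and 1.5-fold with an adjusted p under 0.01 was used here. P-values test differences of condition means against the spread between these replicates, estimated over all 6 conditions. No replicate pair was within sampling noise (chi-square per degree of freedom 2.10 to 12.3), so none was counted as a duplicate. The highest of these values was that of siHP1γ Dex replicates 1 and 3. The script was tested on simulated data whose planted changes were larger than those of the members. That test does not measure how often changes as small as those reported here are found.

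The members and lists were chosen with earlier results of these data known, so they are no independent evidence. All 46 members are named by role, and values in every library are given for CCNB1, CDK1, PLK1, AURKA, AURKB, BIRC5, TOP2A, MKI67, FOXM1, MYBL2 and the 2 called members of each role with the largest change after either depletion with Dex. MAD2L1 and NUF2 were added after their values were seen. Of each list, the 2 called genes with the largest change after each depletion with Dex are named, with CDKN1A and CDKN1B. Alternatives were DESeq2 1.42.0, other scalings and filters, a replicate block, the libraries of each comparison alone and each library left out in turn. Promoters are from RefSeq (GRCh38.p14), coordinates from GENCODE 44.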

Additional observations from a re-analysis of the deposited data

Results flagged for a closer look

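The response of BUB3 to Dex differed between siPRMT5 and siNS cells by 0.33 ± 0.09 (adjusted p = 0.0317) on the log2 scale (edgeR quasi-likelihood test of the interaction, Benjamini-Hochberg adjustment), and this test of the difference is why it is listed here. BUB3 stood at 418, 378 and 399 CPM in siNS Eth and 335, 316 and 329 CPM in siNS Dex libraries, where all 3 Dex values were lower. In siPRMT5 cells it stood at 375, 335 and 357 CPM with Eth and 380.1, 368 and 354 CPM with Dex, where the values overlapped. The call was lost without siNS Eth replicate 1 or 3 or siNS Dex replicate 2 or 3 or siPRMT5 Eth replicate 2 or siPRMT5 Dex replicate 1 or 2 (adjusted p from 0.0588 to 0.0949).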

How the results depend on the processing

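The 4 depletion comparisons kept the sign of their median and most of their calls. With library sizes scaled by total counts alone, 14 genes were called after HP1γ depletion with Dex, and the medians were -0.11 there, -0.20 after HP1γ depletion without Dex and 0.42 for siPRMT5 against siHP1γ with Dex. The medians over all genes tested were then 0.086, 0.069 and -0.070. The members minus all genes were -0.20, -0.26 and 0.49 in the same order, the same values as with TMM. Without the fold limit and at an adjusted p under 0.05, 5 genes responded to Dex in siNS cells and 1 in siPRMT5 cells. With no filter on low counts, 3 genes had an altered Dex response after HP1γ depletion and 2 after PRMT5 depletion, and DESeq2 called 2 after PRMT5 depletion. The causes were not tested. Leaving out 1 library at a time gave 16 to 23 calls after HP1γ depletion with Dex, 23 to 32 after PRMT5 depletion with Dex, 23 to 29 and 22 to 25 without Dex, and 0 to 4 for the response altered by PRMT5 depletion. The medians then ranged from -0.22 to -0.17 and 0.27 to 0.34 with Dex, from -0.30 to -0.24 and 0.18 to 0.23 without Dex, from 0.47 to 0.54 for siPRMT5 against siHP1γ with Dex and from -0.012 to 0.068 for the response altered by PRMT5 depletion. Of the calls, 15 of 23, 21 of 30, 20 of 27 and 22 of 25 were kept in each of these 18 fits after HP1γ and PRMT5 depletion with Dex and then without Dex. The sample titles link samples of different conditions by replicate number alone, and whether these were handled together is not given in the sources used here. Of 45 such pairs, 6 had a correlation of deviations over 0.1 (lowest -0.19, median 0.0066, highest 0.31). With a replicate block, 23, 31, 27 and 25 genes were called in the 4 comparisons in the same order.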

Other observations

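The 4 members with the widest spread among replicates were also the 4 with the most annotated exon bases. CENPE (mean CV 18.1%), CENPF (15.5%), MKI67 (14.9%) and ASPM (12.9%) have 9928, 12471, 12845 and 11994 exon bases in GENCODE 44. BUB3 follows with 8175 exon bases, but its mean CV was 4.14%, at rank 36 from the widest spread. In siPRMT5 cells, replicate 2 was the highest of the 3 for all 4 of these genes in both treatments, and also for TOP2A, ANLN and ECT2. After PRMT5 depletion with Dex, 9 calls were lost in some fit that left out 1 library. All of these except CENPA were lost without siPRMT5 Dex replicate 2. These values were noticed after the data were seen, and no cause was tested.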
